A study of Mus musculus with 14 samples.

Results

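The Polycomb repressive complex genes described here are *Eed*, *Ezh1*, *Ezh2*, *Suz12*, *Jarid2* and *Mtf2* of Polycomb repressive complex PRC2, and *Rnf2*, *Ring1*, *Bmi1* and *Phc1* of PRC1. They were found by name, as every gene probe that the array design assigns to 1 of these 10 genes. This gave 21 of the 41174 gene probes on the array, and 10 of 27962 gene names. *Mtf2* had 4 probes, *Jarid2* and *Phc1* had 3 each, *Suz12*, *Rnf2*, *Ring1* and *Bmi1* had 2 each, and *Eed*, *Ezh1* and *Ezh2* had 1 each.

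Transcripts were measured in 14 mouse blastocyst samples at embryonic day (E) 4.0. The clones were made by somatic cell nuclear transfer from cumulus cells, the somatic cells around the ovulated oocyte, and the labels give them as female. The donor entered the oocyte by cell fusion in 4 of them (fusion clones) and by nuclear injection in the other 4 (injection clones), and the controls were 3 male and 3 female embryos made by in vitro fertilization (IVF). All groups were cultured in KSOM medium, and the labels give no strain, allele or drug treatment for any of them. The RNA passed through 2 rounds of linear amplification before it was labeled with Cy3, and nothing in the labels says which samples shared a culture or a day, so that the p-values measure only the spread between these samples.

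Polycomb proteins keep genes silent through histone marks. PRC2 writes trimethylation of histone H3 at lysine 27 (H3K27me3), and PRC1, which can bind that mark, adds ubiquitin to histone H2A. In the early embryo they hold lineage genes silent, take part in inactivation of the X chromosome, and maintain the imprints that the oocyte lays down as H3K27me3. The arrays measured transcripts, and neither the proteins nor the marks.

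Values are log2 intensities after quantile normalization over the 14 arrays, with a floor of 16 (log2 of 4). A gene is read from its brightest probe, and the level of 1 probe cannot be set against that of another. Differences are clone minus female IVF in log2 units, with the standard error (SE), and a probe was called when limma's moderated test gave a Benjamini-Hochberg adjusted p below 0.05 over all probes tested. The brightest probes of all 10 genes were well above background on all 14 arrays, and none was saturated. Each group lay on a slide of its own, and the clones were scanned and processed with another scanner and software version than the IVF embryos, so that slide and group cannot be told apart in any comparison below. In bulk RNA, fewer cells of a type and less RNA per cell cannot be told apart either.

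The lineage markers of the blastocyst were checked beside these genes. All 4 epiblast markers with a probe (*Pou5f1*, *Nanog*, *Sox2* and *Tdgf1*) and all 7 trophectoderm markers were well above background on every array. Of 5 primitive endoderm markers, 2 were so on every fusion clone array, 3 on every injection clone array, 4 on every male and 5 on every female IVF array. In the fusion clones the trophectoderm factor *Elf5* (log2 difference -2.96, adjusted p = 0.016) and the primitive endoderm factor *Sox7* (-6.39, adjusted p = 0.018) were lower than in female IVF embryos. The other 14 lineage markers with a probe were not called. In the injection clones none of the 16 was called, and there the differences of *Elf5* (-3.65, adjusted p = 0.0664) and *Sox7* (-5.28, adjusted p = 0.0643) were about as large. The 5 primitive endoderm markers had a median difference of -2.54 in fusion clones, with 1 of the 5 above 0, and of -3.57 in injection clones, with 0 above 0. For the 7 trophectoderm markers the medians were -0.02 and -0.11, and for the 4 epiblast markers -0.13 and 0.17. The summed level of the primitive endoderm markers was 16.18 to 17.29 in fusion clones, 15.91 to 17.05 in injection clones, 15.96 to 16.61 in male and 16.53 to 17.09 in female IVF embryos. Of 6 cumulus cell markers, 1 was well above background on every array of each group, and 4 were on no array of the fusion clones, 5 on none of the injection clones, 4 on none of the female and 1 on none of the male IVF embryos. The part of cell makeup in the results below was not tested.

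*Suz12* was the member that passed the test, and it was higher in the fusion clones. It encodes the scaffold of PRC2, without which the complex does not assemble. Its brightest probe (A_51_P214796, chromosome 11) read 16.31, 16.23, 16.51 and 16.25 in the 4 fusion clones and 15.58, 15.46 and 15.62 in the 3 female IVF embryos. The lowest clone lay above the highest female embryo. The mean was 16.33 ± 0.13 (SD, n = 4) against 15.56 ± 0.08 (SD, n = 3), a log2 difference of 0.77 (SE 0.15, adjusted p = 0.0319), or 1.71-fold (95% CI 1.32 to 2.20).

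The injection clones showed a *Suz12* level close to that of the fusion clones, and just missed the threshold. They read 16.19, 16.28, 16.06 and 16.15 for the same probe, again with no overlap with the female embryos. The log2 difference was 0.62 (SE 0.12, adjusted p = 0.0524), with a 95% CI from 0.32 to 0.91. Between the fusion and the injection clones the difference was 0.16 (95% CI -0.08 to 0.39, adjusted p = 0.814). The male IVF embryos read 15.16, 15.77 and 15.85, so that all 8 clones, from 16.06 to 16.51, lay above all 6 IVF embryos, from 15.16 to 15.85. Scanner and software version split the samples in the same way. The share of all probes that set every clone apart from every IVF embryo, or 1 group from all others, was not counted, here or below. The 2 clone comparisons share the female embryos, so that their values do not stand for independent measurements.

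The second *Suz12* probe (A_52_P302203) lies 20273 bases further 5′ along the gene in the coordinates of the array files, for which no genome build is named. It read 9.40, 9.55, 9.499 and 9.86 in fusion clones, 10.52, 9.25, 9.21 and 9.99 in injection clones, 8.26, 8.37 and 6.31 in male and 8.34, 8.39 and 7.52 in female IVF embryos. Here too every clone lay above every IVF embryo. Its difference from the female embryos was larger than that of the brightest probe, at 1.496 (SE 0.27, adjusted p = 0.0247) in fusion clones and 1.66 (SE 0.41, adjusted p = 0.0785) in injection clones.

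The call of *Suz12* in fusion clones depended on the number of arrays. With any 1 of the 7 arrays left out, the difference of the brightest probe stayed between 0.71 and 0.80, but the adjusted p rose to between 0.0607 and 0.0903. The probes called over the whole array fell at the same time from 3085 to between 1125 and 2824. With the male and female IVF embryos together as controls, a setting chosen after the values had been seen, the adjusted p was 0.0246 in fusion clones and 0.050001 in injection clones.

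**Figure D1:**
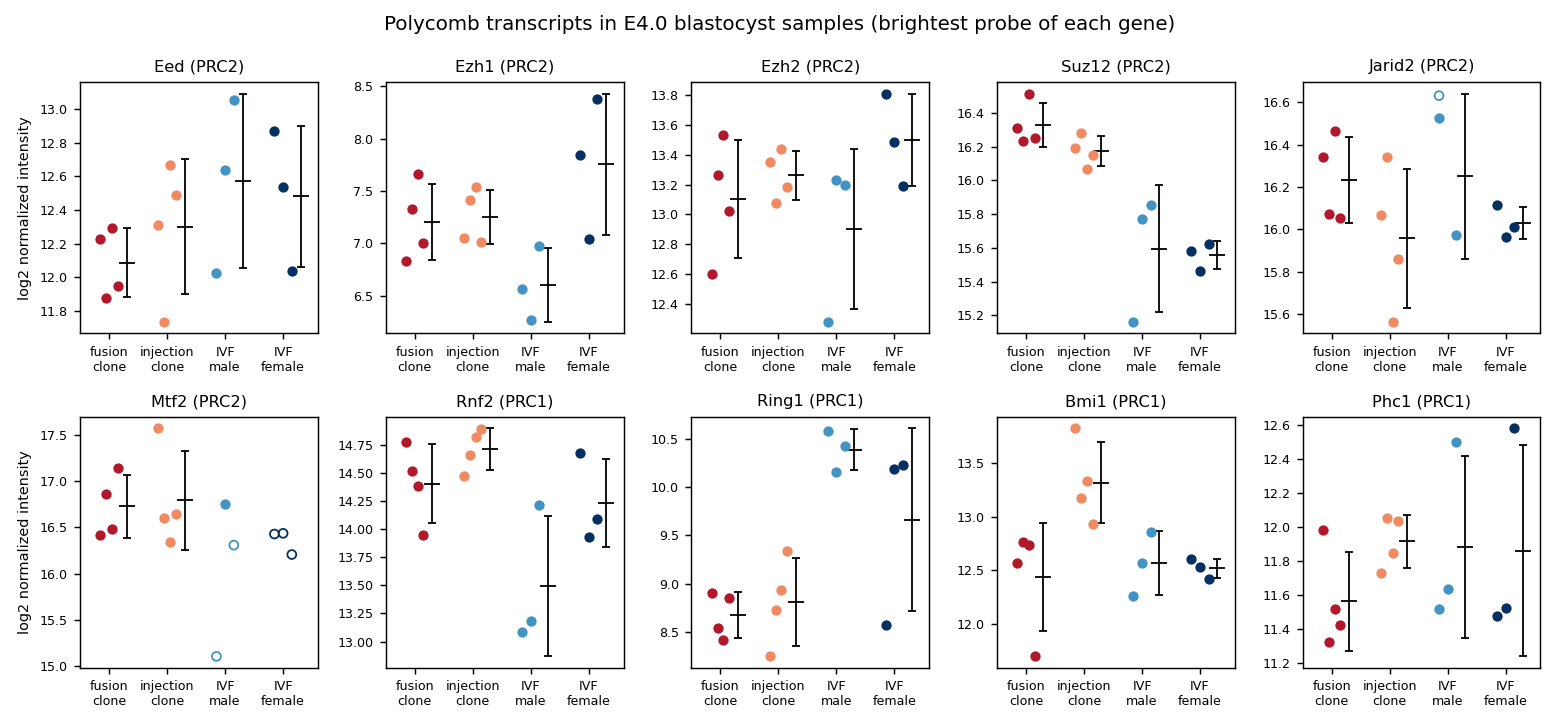
Log2 normalized intensity of the brightest probe of each of the 10 Polycomb genes, with 1 point per array in each of the 4 groups, and a bar for mean and SD over the filled points. Open points are spots that the scanner software marked as outliers, shown at the value they would have if kept. The *Suz12* points of all 8 clones (16.06 to 16.51) lie above those of the 6 IVF embryos (15.16 to 15.85), and the axes differ between panels.

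Of the other core PRC2 genes, none passed the test in any comparison. *Ezh2* encodes the main H3K27 methyltransferase of the embryo, *Ezh1* its less active relative, and *Eed* the subunit that binds the finished mark and stimulates the enzyme. *Ezh2* read 12.60, 13.26, 13.53 and 13.03 in fusion clones, 13.35, 13.07, 13.44 and 13.19 in injection clones, 12.28, 13.23 and 13.20 in male and 13.81, 13.49 and 13.19 in female IVF embryos. The groups overlapped, and the difference from the female embryos was -0.39 (95% CI -1.05 to 0.28, adjusted p = 0.424) in fusion clones and -0.23 (95% CI -0.70 to 0.23, adjusted p = 0.50) in injection clones. Both intervals include 0.

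*Eed* ranged from 11.87 to 12.29 in fusion clones, 11.73 to 12.67 in injection clones, 12.03 to 13.06 in male and 12.04 to 12.87 in female IVF embryos. Its difference was -0.39 (95% CI -0.98 to 0.20, adjusted p = 0.363) in fusion clones and -0.18 (95% CI -0.91 to 0.55, adjusted p = 0.73) in injection clones. Both intervals include 0 here too.

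By its brightest probe, *Ezh1* had the widest gap between the sexes among the 9 members tested there. The male IVF embryos read 6.57, 6.27 and 6.98 and the females 7.84, 7.04 and 8.38, without overlap, and the difference male minus female was -1.15 (SE 0.42, adjusted p = 0.621). Clones of both kinds lay between 6.83 and 7.66, across the gap. Their differences from the female embryos were -0.55 (adjusted p = 0.396) in fusion clones and -0.50 (adjusted p = 0.44) in injection clones.

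*Jarid2* and *Mtf2* encode accessory subunits that help to bring PRC2 to its target sites, in alternative forms of the complex. The brightest *Jarid2* probe hardly moved. It ranged from 16.05 to 16.46 in fusion clones, 15.56 to 16.34 in injection clones and 15.97 to 16.11 in female IVF embryos, with differences of 0.20 (95% CI -0.21 to 0.62, adjusted p = 0.483) and -0.07 (95% CI -0.57 to 0.43, adjusted p = 0.853). A second *Jarid2* probe, 842 bases further 5′, differed by 0.63 (adjusted p = 0.172) and 0.35 (adjusted p = 0.438), and the last, 35917 bases further 5′, was well above background on 1 of the 14 arrays.

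Of the 4 *Mtf2* probes, the 3 that could be tested varied widely between single IVF embryos. The gene's brightest probe could not be tested against IVF embryos, because its spot was marked as an outlier for uneven pixels on 5 of the 6 IVF arrays, all 3 female ones included. In the female embryos the other 3 probes varied together. The most 5′ of them (A_52_P106805) read 10.03, 11.05 and 9.38, the next (A_51_P264995) 13.43, 15.22 and 13.05, and the remaining one (A_52_P627306) 13.08, 15.22 and 12.96. On each of these probes female embryo 2 was the high one of the females, and on the last pair it stood about where the fusion clones did. Male IVF embryos 2 and 3 were high as well. In the same order of probes, male 2 read 11.53, 15.27 and 15.21, and male 3 read 11.66, 15.25 and 15.09. Male 1 read 10.02, 14.28 and 13.84.

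In the fusion clones the 3 probes were tight. They read 11.73, 11.82, 11.75 and 12.05 on the most 5′ probe, which lies 27822 bases from the last one, and this probe was called higher than in female embryos, by 1.68 (SE 0.39, adjusted p = 0.0456). The middle probes differed by 1.22 (SE 0.53, adjusted p = 0.199) and 1.42 (SE 0.57, adjusted p = 0.173), with overlap through female embryo 2. Without that embryo the difference of the most 5′ probe was 2.13 (adjusted p = 0.0104), and without any other single array its adjusted p was between 0.083 and 0.105. The SD of the 3 probes was 0.15 to 0.28 in fusion clones, 0.38 to 0.49 in injection clones, 0.57 to 0.91 in male and 0.84 to 1.28 in female IVF embryos.

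The injection clones lay between. Their 3 *Mtf2* differences from the female embryos were 0.61, 0.78 and 1.14, with adjusted p from 0.186 to 0.555. With the marked spots kept, a setting added after the values had been seen, the brightest *Mtf2* probe read 16.43, 16.44 and 16.21 in female embryos and 16.44, 16.88, 16.49 and 17.15 in fusion clones. The male embryos read 15.11, 16.31 and 16.75 on it, with male 1 the lowest, as on the other 3 probes. Female embryo 2 no longer stood apart on the brightest probe. The difference from the females was 0.38 (95% CI -0.17 to 0.94, adjusted p = 0.351) in fusion clones and 0.44 (95% CI -0.29 to 1.18, adjusted p = 0.445) in injection clones.

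None of the 4 PRC1 genes passed the test on its brightest probe. *Rnf2* and *Ring1* encode the alternative ubiquitin ligases of PRC1 (RING1B and RING1A), *Bmi1* a partner that activates them, and *Phc1* a polyhomeotic subunit that links complexes to each other. *Rnf2* read 14.77, 14.52, 14.38 and 13.94 in fusion clones and 14.47, 14.66, 14.82 and 14.89 in injection clones, against 14.67, 13.93 and 14.09 in female and 13.09, 13.18 and 14.21 in male IVF embryos. The clones overlapped the females, with differences of 0.17 (95% CI -0.50 to 0.84, adjusted p = 0.702) and 0.48 (95% CI -0.07 to 1.02, adjusted p = 0.265). The males had the lowest mean, with a difference from the females of -0.74 (adjusted p = 0.675) and overlap. The second *Rnf2* probe (A_52_P149743) was well above background on all 14 arrays. It differed from the females by 0.13 (adjusted p = 0.83) in fusion clones, -0.07 (adjusted p = 0.958) in injection clones and -1.03 (adjusted p = 0.661) in males.

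*Ring1* ran the other way from *Suz12*, and its result turned on 1 control array. The clones read 8.91, 8.54, 8.42 and 8.85 (fusion) and 8.25, 8.72, 8.94 and 9.34 (injection), and the male IVF embryos read 10.57, 10.15 and 10.43. Of the female embryos, 2 read 10.19 and 10.22, with the males, and female embryo 1 read 8.57, among the clones. The difference from the females was -0.98 (SE 0.44, adjusted p = 0.21) in fusion clones and -0.85 (SE 0.49, adjusted p = 0.36) in injection clones. Without female embryo 1 it was -1.53 (adjusted p = 0.025) in fusion clones, which passes the test, and -1.39 (adjusted p = 0.0942) in injection clones.

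On the other *Ring1* probe, 671 bases further 5′, female embryo 1 was not low. This probe read 5.03, 4.98, 5.12 and 5.15 in fusion clones and 5.87, 5.53 and 5.68 in female embryos, without overlap, and differed by -0.63 (SE 0.16, adjusted p = 0.0552). The injection clones read 5.38, 5.20, 5.12 and 5.77, which overlapped the females (difference -0.33, adjusted p = 0.393). With male and female embryos together as controls, the brightest *Ring1* probe was lower in fusion clones (-1.34, adjusted p = 0.0336), and in injection clones the difference was -1.21 (adjusted p = 0.0752).

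*Bmi1* stood apart in the injection clones. They read 13.82, 13.18, 13.34 and 12.93, against 12.57, 12.76, 12.74 and 11.70 in fusion clones, 12.60, 12.53 and 12.42 in female and 12.26, 12.57 and 12.86 in male IVF embryos. Every injection clone lay above every sample of the other groups. The difference from the female embryos was 0.80 (SE 0.23, adjusted p = 0.109) and that of fusion from injection clones was -0.87 (SE 0.30, adjusted p = 0.754), so that neither passed the test. The second *Bmi1* probe did not share this order. It was well above background on 10 of 14 arrays, none of them male, and its mean was 6.06 in clones of both kinds and 5.67 in female embryos. The females read 6.28, 4.91 and 5.81 on it, and all 3 males were not well above background. With the males at the floor the difference male minus female was -1.67 (SE 0.39, adjusted p = 0.454), or 3.18-fold. Over 17 alternatives this difference ran from -4.08 to -0.70, and 0 of them called it.

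The *Phc1* probes disagreed in the size of their differences, and in injection clones also in sign. The brightest ranged from 11.33 to 11.98 in fusion clones, 11.73 to 12.05 in injection clones and 11.48 to 12.58 in female IVF embryos, with differences of -0.30 (95% CI -1.09 to 0.50, adjusted p = 0.576) and 0.06 (95% CI -0.68 to 0.79, adjusted p = 0.931). The most 3′ probe (A_51_P433430), only 255 bases away, read 9.08, 9.42, 9.28 and 9.19 in fusion clones, 9.80, 10.16, 9.58 and 9.92 in injection clones, 9.55, 9.86 and 11.53 in male and 10.02, 10.42 and 10.90 in female embryos. On it every fusion clone lay below every other sample. It was called lower than in female embryos (-1.21, SE 0.24, adjusted p = 0.0327), and its difference from the injection clones was -0.62 (adjusted p = 0.546). With male and female embryos together as controls its adjusted p was 0.0818, and with any 1 array left out it was between 0.0298 and 0.0851.

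**Figure D2:**
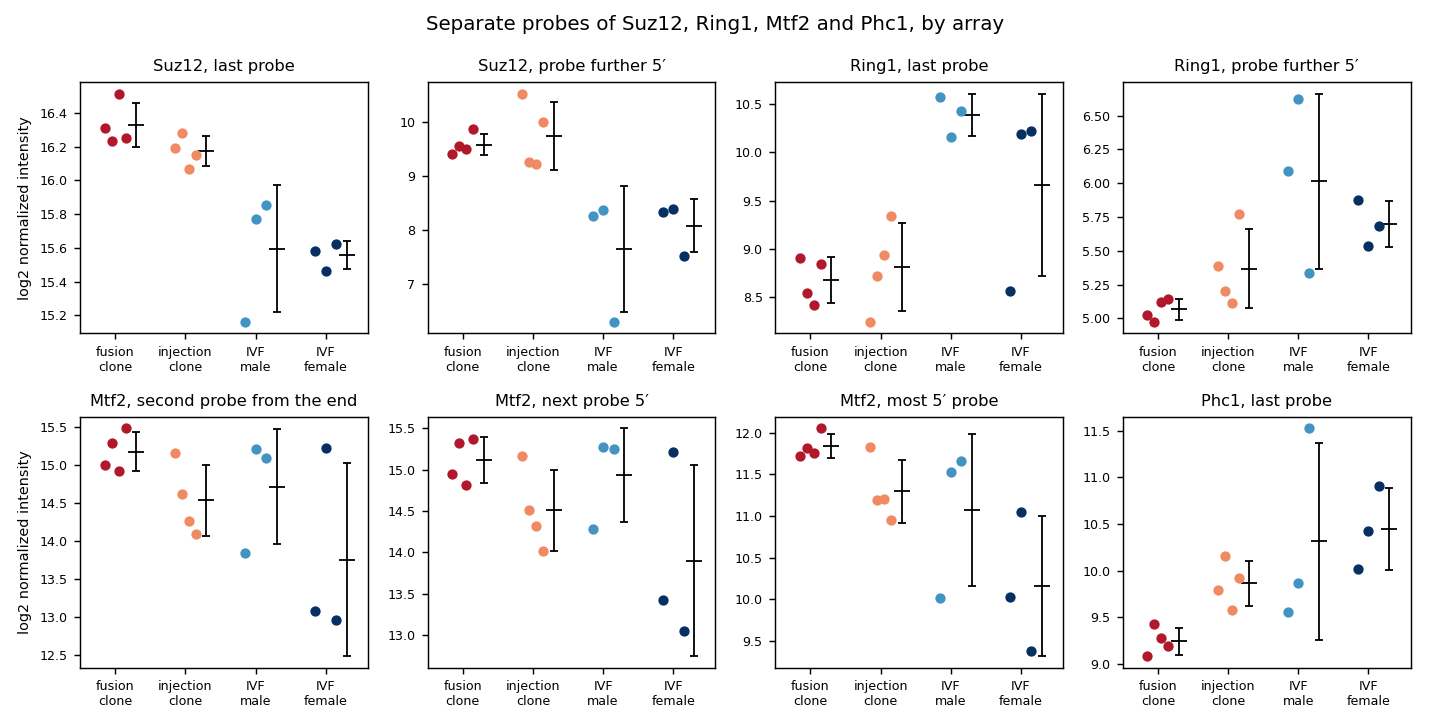
Log2 normalized intensity by array of single probes of *Suz12*, *Ring1*, *Mtf2* and *Phc1*, with 1 point per array, and a bar for mean and SD in each group. The probes are named by their order along the gene, the last being the most 3′. Both *Suz12* probes separate the 8 clones from the 6 IVF embryos, and female embryo 1 is low on 1 *Ring1* probe only. On the 3 *Mtf2* probes female embryo 2 is the highest of the females, and male embryos 2 and 3 are high too.

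Taking the 10 genes as a list, 1 of the 9 that could be tested was called in fusion clones against female embryos. This was *Suz12*, higher, and over all 32458 probes tested 9.5% were called, 4.32% higher and 5.18% lower. Among the probes well above background on every array compared, as these were, it was 10.8%. The share among the members is near that background. The 9 differences had a median of -0.30 and ran from -0.98 to 0.77, beside a median of -0.12 over all probes tested, and 3 of them were above 0. *Suz12* was also the 1 member of 9 whose groups did not overlap, where 25.8% of all probes had groups that did not.

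In injection clones against female embryos, 0 of 9 members were called by limma, and 3.67% of 32840 probes were (1.53% higher and 2.14% lower, and 4.15% of the probes well above background on every array compared). At an unadjusted p below 0.05 there were 2, *Suz12* and *Bmi1*, which were also the 2 whose groups did not overlap (20.9% of all probes), and 23.2% of all probes had such a p. The share among the members is again near the background. The median of the 9 differences was -0.07, between -0.85 and 0.80, against -0.08 over all probes. Between fusion and injection clones 0 of 10 members and 0 of 32303 probes were called, and at an unadjusted p below 0.05 there was 1 member, *Bmi1*, and 6.17% of all probes. Between male and female IVF embryos 0 of 9 members were called, where 0.0593% of 32038 probes were, and *Ezh1* alone had an unadjusted p below 0.05 (7.77% of all probes). Groups did not overlap for *Bmi1* between the 2 kinds of clone (3.31% of all probes) and for *Ezh1* between the sexes (12.8% of all probes).

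**Figure D3:**
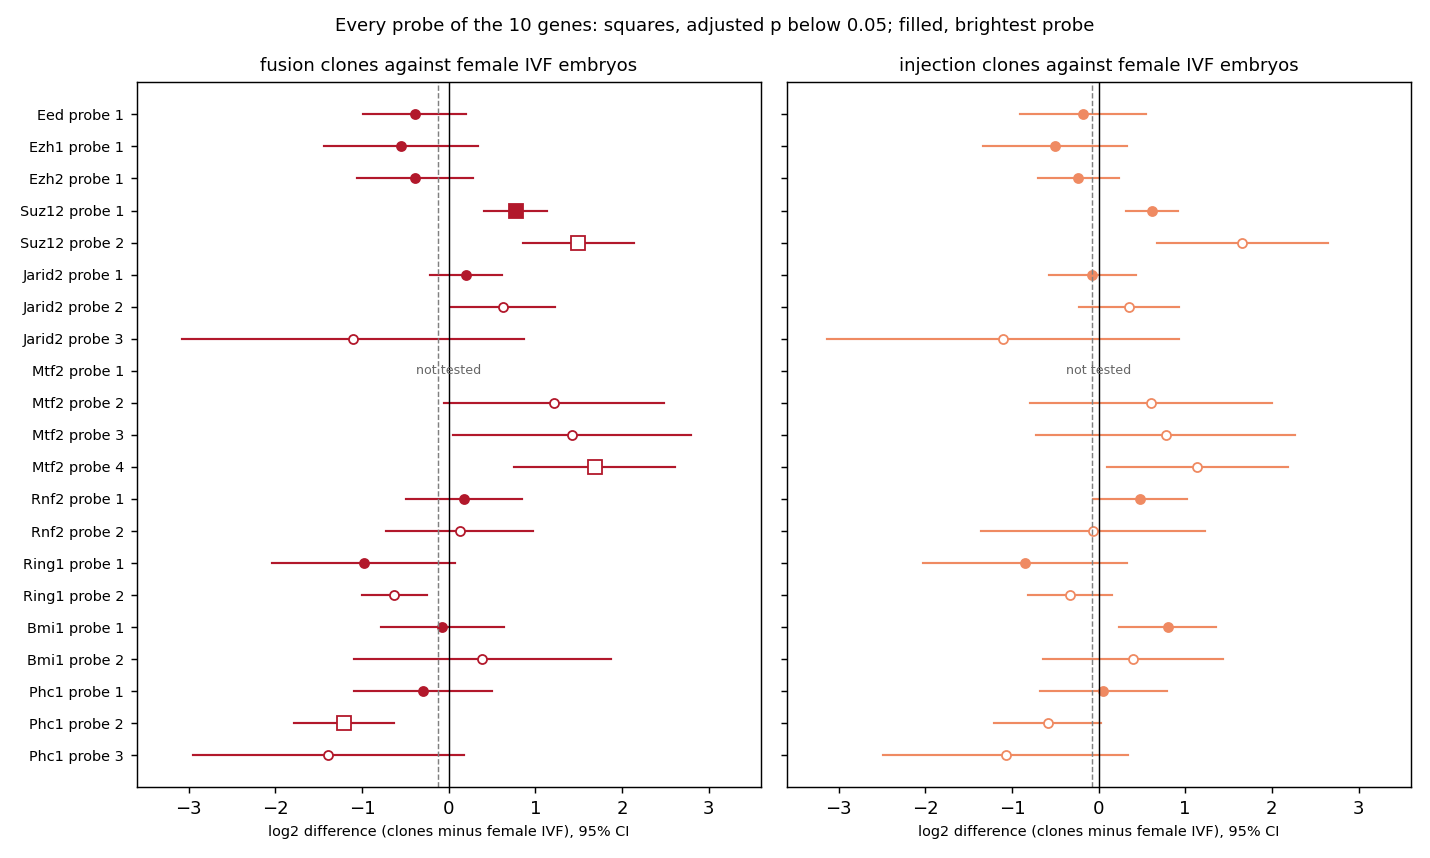
Log2 difference from the female IVF embryos for each of the 21 probes, with 95% confidence intervals from limma, in fusion clones (left) and injection clones (right). Filled symbols are the brightest probe of a gene, squares have an adjusted p below 0.05, and the dashed line is the median of all probes tested (-0.12 and -0.08). The squares are 2 *Suz12* probes and 1 *Mtf2* probe above 0 and 1 *Phc1* probe below 0, all in fusion clones.

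Other genes of the pathway were read from a list of 42, all with a probe on the array, of which 39 were well above background on every array of the female embryos. In fusion clones 0 of 41 tested were called higher and 3 lower, and in injection clones 1 was called higher and 2 lower, where 9.5% and 3.67% of all probes were called in either direction. The differences had a median of -0.15 in fusion clones, from -2.34 to 3.19, and -0.04 in injection clones, from -1.79 to 2.43. Groups did not overlap for 14 and for 10 of the 41 genes, where this held for 25.8% and 20.9% of all probes.

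The largest called change was in *Cbx7*, on chromosome 15, which encodes the chromodomain subunit through which canonical PRC1 reads H3K27me3. It read 10.84, 11.15, 11.73 and 9.97 in fusion clones and 11.29, 11.41, 11.33 and 11.30 in injection clones. The female IVF embryos read 12.69, 13.05 and 13.64 and the males 11.84, 12.88 and 13.30, so that every clone lay below every IVF embryo. The share of all probes with such a split was not counted. It was 4.60-fold lower in fusion clones (log2 difference -2.20, SE 0.45, adjusted p = 0.0353) and 3.47-fold lower in injection clones (-1.79, SE 0.24, adjusted p = 0.026). Of 19 alternatives run on this probe, 11 kept the call in fusion clones and 15 in injection clones.

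*Bcorl1*, which encodes a corepressor of a variant PRC1 and lies on the X chromosome, was lower in fusion clones (-1.30, SE 0.27, adjusted p = 0.0367) and in injection clones (-1.04, SE 0.19, adjusted p = 0.0461). The fusion clones read 9.97 to 10.85, the injection clones 10.54 to 10.82 and the females 11.44 to 12.10. The males, from 9.90 to 11.80, reached across both. A second *Bcorl1* probe had differences of 0.45 (adjusted p = 0.546) and -0.03 (adjusted p = 0.99), so that the gene rests on 1 probe.

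*Phf19*, a Polycomb-like relative of *Mtf2*, was lower in fusion clones (-1.30, SE 0.26, adjusted p = 0.0318). In injection clones the difference was -1.41 (SE 0.31, adjusted p = 0.0636). The clones read 5.999 to 7.27 and the females 7.74 to 8.11. The males read 8.63, 9.38 and 6.74, so that male embryo 3 lay among the clones. With male and female embryos together as controls *Phf19* did not pass the test in fusion clones (-1.45, adjusted p = 0.0747) or in injection clones (-1.56, adjusted p = 0.084). *Sfmbt1*, which encodes an MBT-repeat protein that binds methylated histones, was higher in injection clones by 1.44 (SE 0.27, adjusted p = 0.0491), with 10.26 to 10.71 against 8.56 to 9.62 in females. In fusion clones its difference was 0.90 (SE 0.35, adjusted p = 0.166). Of the 19 alternatives, 9 kept the call of *Bcorl1* and 7 that of *Phf19* in fusion clones, and 5 that of *Bcorl1* and 5 that of *Sfmbt1* in injection clones.

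By role, the calls were 1 of 6 PRC2 accessory and histone-binding subunits (*Phf19*), 1 of 9 tested canonical PRC1 subunits (*Cbx7*) and 1 of 16 variant PRC1 subunits (*Bcorl1*) in fusion clones. None of the 5 H2A deubiquitinase genes, 2 H3K27 demethylase genes or 3 genes that the list groups as DNA-binding partners was called there. In injection clones the calls were *Cbx7*, *Bcorl1* and, from that last group, *Sfmbt1*, whose protein is described above as binding methylated histones. Between the kinds of clone, and between the sexes, limma called 0 pathway genes, with 2 in each comparison at an unadjusted p below 0.05, beside 6.17% and 7.77% of all probes.

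**Figure D4:**
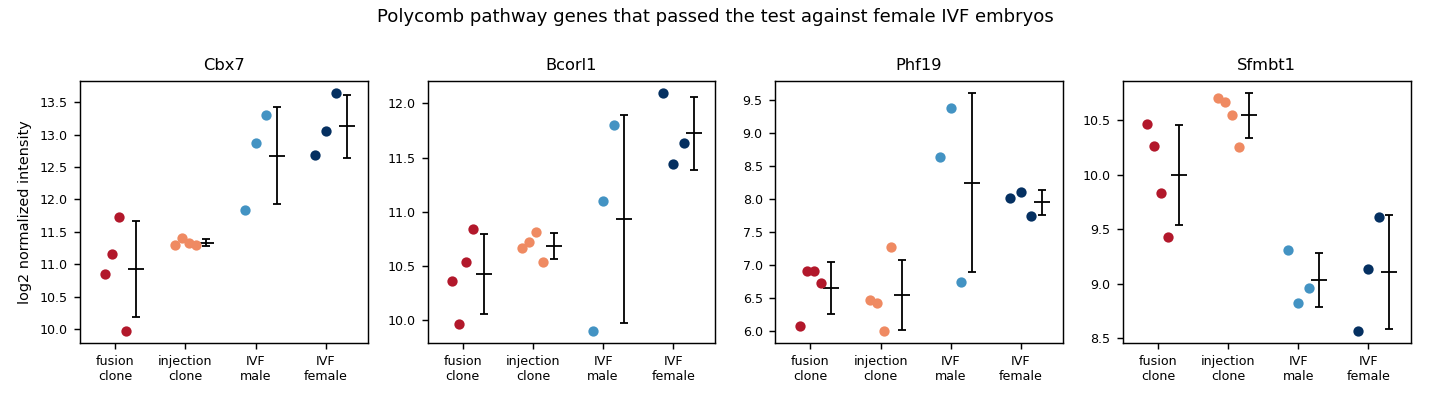
Log2 normalized intensity of *Cbx7*, *Bcorl1*, *Phf19* and *Sfmbt1* by array (brightest probe), with 1 point per array and a bar for mean and SD. *Cbx7* lies between 9.97 and 11.73 in the 8 clones and between 11.84 and 13.64 in the 6 IVF embryos.

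**Figure D5:**
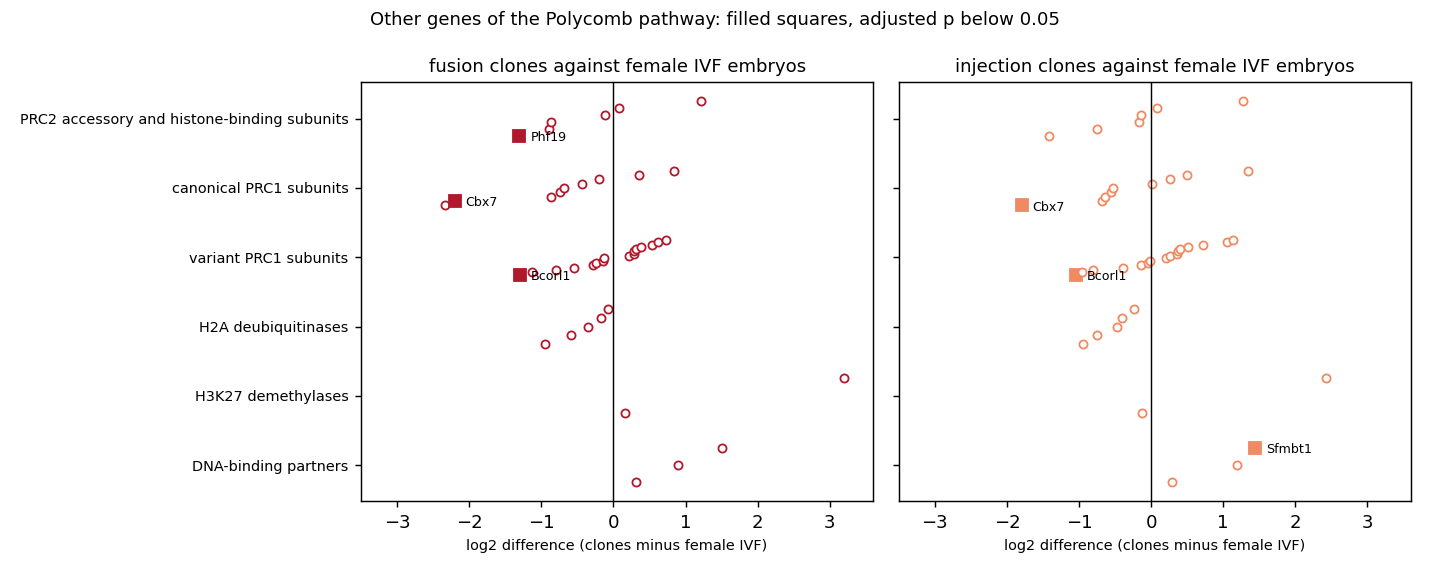
Log2 difference from the female IVF embryos of the tested genes among the 42 other pathway genes, by role, in fusion clones (left) and injection clones (right), with 1 point per gene. Filled squares with names have an adjusted p below 0.05. The 3 named genes on the left lie below 0, and on the right *Sfmbt1* lies above 0.

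Known targets of Polycomb silencing were read as well. Of 38 *Hox* genes with *Cdkn2a* and *Cdkn2b*, 40 in all, 9 were well above background on every fusion clone array, 11 on every injection clone array, 18 on every male and 19 on every female IVF array. In fusion clones 0 of 34 tested were called higher and 2 lower, where 5.18% of all probes were called lower, and those called included *Hoxb9* (-2.45, SE 0.45, adjusted p = 0.0264). In injection clones 0 of 33 were called higher and 2 lower, where 2.14% of all probes were called lower, and those called included *Hoxa5*. This gene was not well above background on any injection clone array. With those arrays at the floor its difference was -3.91 (SE 0.56, adjusted p = 0.030), or 15.1-fold. Over 19 alternatives the *Hoxa5* difference in injection clones ran from -7.91 to -2.28, and 13 kept the call. Each gene was also lower, without a call, in the other kind of clone. *Hoxa5* differed by -3.30 (SE 0.85, adjusted p = 0.0592) in fusion clones, with 1 of the 4 arrays well above background. *Hoxb9* differed by -1.91 (SE 0.40, adjusted p = 0.057) in injection clones. The medians over all tested genes of this list were -1.05 and -0.75, against -0.12 and -0.08 over all probes, and the differences above 0 numbered 5 of 34 and 4 of 33. The software of the IVF arrays gave processed signals below 0 on 6790 to 9981 gene spots per array and that of the clones gave none, and its part in the levels of dim genes was not tested.

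The 5 imprinted genes that depend on H3K27me3 from the oocyte all had positive differences in clones, with medians of 1.03 in fusion and 0.95 in injection clones. In fusion clones 2 of the 5 were called (9.5% of all probes were), *Jade1* by 2.17 (SE 0.38, adjusted p = 0.0237) and *Sfmbt2* by 1.70 (SE 0.37, adjusted p = 0.0404). In injection clones 0 were called by limma, where 3.67% of all probes were, and 3 had an unadjusted p below 0.05, as did 23.2% of all probes.

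The genes whose levels followed *Ezh2* and *Rnf2* most closely over the 14 arrays were sought among 10872 named genes. For *Ezh2* these were *Haus3* and *Cpsf6* (Pearson r = 0.88 each) and *Dffb* (r = 0.85). For *Rnf2* they were *Dhx36* (r = 0.95), *Dcaf13* (r = 0.93) and *Maff* (r = 0.93). Within the groups, after each group's mean was taken out, the r of these 6 genes was between 0.80 and 0.89. The arrays of a group share a slide, and these values describe likeness only.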

How the data were processed

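The authors deposited the scanner output of 1-color Agilent arrays, with the processed intensity of each spot on a linear scale, background subtracted and not normalized between arrays. Per the file headers, Feature Extraction 10.5.1.1 was used for the 8 clone arrays and 9.5.3.1 for the 6 IVF arrays. The authors also deposited log2 values of the same arrays, which were used as an alternative, and no column was without a sample (0).

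Here 1639 control spots were dropped, outlier-marked spots set to missing, and processed intensities quantile-normalized, floored at 16 and converted to log2. A probe that no array of either group showed well above background was left out, and the rest were fitted with limma 3.58.1 (R 4.3.3), pairwise. Python 3.11.15 and matplotlib 3.10.9 were used for tables and figures. The study's methods used an unadjusted 5% level with a 2-fold filter, which was run as an alternative. The fit was tested on simulated data. The values of 1 gene are not reported here. Precision is limited by the number of arrays, as there is no read depth.

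Members, lists and tests were chosen with earlier results of these data known. All 10 members are named, beside at most 3 called pathway genes per direction, by largest difference, and the 3 genes most like *Ezh2* and *Rnf2*. The probe table of RefSeq GRCm38.p6 matched 33468 of 41174 probes (81.3%). Male and female arrays of the same number deviated together weakly (r = 0.15, 0.17 and 0.17 over 17478 probes), and nothing in the labels pairs them. The values given for the sexes are from the fit without pairs. The numbers were fitted as a block as an alternative. With that block limma called 0 of 32038 probes between the sexes, where the main fit called 19. The main fit had called 0 members and 0 pathway genes there, so that the block says nothing about these genes.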

Additional observations from a re-analysis of the deposited data

How the results depend on the processing

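Of 164 counts recomputed under an alternative, 119 stayed within 1.5 times the main count. A count of 0 that stayed 0 is among these. Between the kinds of clone and between the sexes every main count was 0. There limma called 0 of 32303 and 19 of 32038 probes over the whole array, so that these counts had little room to move. Of 722 differences of members 657 kept their direction and their side of the threshold. In the main fit only *Suz12* in fusion clones was called among them. The count of members called in fusion clones against female embryos (1) was 0 with a floor of 1, with the authors' log2 table, with the replicate block and at the methods' threshold, and 2 with embryos of both sexes as controls. It was 0 to 1 with 1 array left out, the 1 being *Ring1* without female embryo 1. In injection clones the count (0) was 1 with normexp, a floor of 32, no filter, all 4 groups in 1 fit, a variance trend, gene means or outlier-marked spots kept, each time *Suz12*, and 1 with embryos of both sexes (*Bmi1*). Leaving out 1 array gave 0 to 0 there. Between the sexes the count (0) was 1 at the methods' threshold. The 3 pathway genes called in fusion clones became 1 with the deposited values or no filter, 5 with the stricter filter or all groups in 1 fit, 0 with the replicate block, 8 at the methods' threshold and 0 to 3 with 1 array left out. The 3 in injection clones became 1 with the deposited values, a floor of 1, no filter or gene means, 0 with the replicate block, 6 at the methods' threshold and 0 to 2 with 1 array left out. At that threshold 2 pathway genes differed between the kinds of clone and 1 between the sexes. The replicate block called 0 of 32458 probes over the whole array in fusion clones and 0 of 32840 in injection clones. Its counts of 0 are therefore not particular to these genes.

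For same-numbered clones and female embryos r was -0.12 to 0.10, and for the 2 kinds of clone -0.07 to 0.17. Both signs occurred, so that these numbers were not read as pairs. With the replicate block, under which no probe of the array was called, *Suz12* differed by 0.80 (adjusted p = 0.157) in fusion clones. It was also not called with the deposited values (0.71, adjusted p = 0.0783) or a floor of 1 (0.77, adjusted p = 0.0644). The median of all probes in fusion clones was -0.12 here and 0.05 with the deposited values.

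Uncalled differences near 0 changed sign. Against females, in fusion clones, *Ezh1* was 0.0234 with both sexes as controls, *Jarid2* -0.0885 with normexp and -0.24 as gene mean, and *Bmi1* 0.16 as gene mean and 0.17 with the block. In injection clones *Ezh1* was 0.0731 and *Ezh2* 0.0624 with both sexes, and *Phc1* -0.53 as gene mean. Between the kinds of clone *Ezh1* was 0.0256 with the percentile shift and 0.0308 with the deposited values, and as gene means *Suz12* was -0.005 and *Mtf2* 0.60. Between the sexes the gene means were -0.20 for *Suz12*, -0.78 for *Jarid2*, -0.81 for *Bmi1* and -0.22 for *Phc1*, and *Phc1* was -0.0074 with the percentile shift and -0.0042 with the deposited values. With 1 array left out the differences spanned -0.18 to 0.17 for *Bmi1* and -0.49 to 0.0598 for *Phc1* in fusion clones, -0.40 to 0.0135 for *Eed*, -0.20 to 0.0603 for *Jarid2* and -0.14 to 0.41 for *Phc1* in injection clones, -0.20 to 0.0743 for *Ezh1*, -0.30 to 0.0127 for *Ezh2*, -0.21 to 0.19 for *Mtf2* and -0.32 to 0.0422 for *Ring1* between the kinds of clone, and -0.15 to 0.37 for *Eed*, -0.088 to 0.26 for *Suz12*, -0.0554 to 0.50 for *Jarid2*, -0.10 to 0.20 for *Bmi1* and -0.29 to 0.38 for *Phc1* between the sexes.

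A slide block was not run, because each slide held 1 group. The settings with outlier-marked spots kept and with embryos of both sexes as controls were added once values were known. No member was flagged as an outlier in the 20 groups of 4 arrays tested, all of them clones. The IVF groups held 3 arrays each and were not tested. This check therefore does not cover the female embryos that stood apart for *Ring1* and *Mtf2*.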
